A study of Mus musculus with 18 samples.

Results

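The interaction described here asks for which genes the effect of PIP4K2B depletion in C2C12 cells depended on whether the cells were differentiating or had been treated with etoposide. It rests on 12 of the 18 arrays of the series, chosen by their labels as the arrays of cells rescued with WT-TAF3, and on 19938 genes. C2C12 is an immortal mouse myoblast line that fuses into myotubes when serum is lowered, and etoposide, an inhibitor of topoisomerase II, breaks DNA. The 12 arrays form 4 groups of 3: sh-PIP4K2B cells and control cells differentiated for 2 days in horse serum, and sh-PIP4K2B cells and control cells treated with etoposide at 10 µM for 7 hours. In all 4 groups endogenous TAF3 had been knocked down and WT murine TAF3 expressed in its place. The remaining 6 arrays held sh-PIP4K2B cells rescued with KK-TAF3, a mutant that no longer binds phosphoinositides, in the same pair of treatments. They entered the fit for the estimate of the spread and served for values given side by side. In the fit with the array median as a further term, described below, they also helped to set the slope on that median. The interaction values of that fit therefore depend on them too.

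The labels of the control arrays name no control shRNA, and the sh-PIP4K2B construct of these arrays is not given in the labels. For differentiation, the series' design text states 3 days, whereas the labels and the paper state 2. Differentiation and etoposide also differed in duration and may have differed in serum, so these cannot be told apart from the treatment itself. Cells without either treatment were not analysed here.

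PIP4K2B is a lipid kinase that phosphorylates phosphatidylinositol 5-phosphate, a lipid signal found at low levels in the nucleus among other places, and so lowers its level. TAF3 is a subunit of TFIID, the complex that starts transcription by RNA polymerase II, and its PHD finger reads trimethylated lysine 4 of histone H3. Myoblasts that differentiate leave the cell cycle, switch on myogenin and build sarcomeres, whereas cells with etoposide-induced breaks activate p53 and halt in the cycle.

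For each gene the interaction is the change in log2 signal on depletion in differentiated cells (sh-PIP4K2B minus control) minus the change on depletion in etoposide-treated cells. A positive value means that the change was more positive in differentiated cells, and it says nothing about which of the treatments moved. A gene was called at a Benjamini-Hochberg adjusted p under 0.05 in limma with a value beyond 1.4-fold, a log2 value of 0.485. The median signal of the arrays shifted in opposite directions on depletion. It was 7.33, 7.25 and 7.30 in sh-PIP4K2B differentiated cells, below each of the values 7.41, 7.40 and 7.35 in differentiated control cells. After etoposide it was 7.32, 7.46 and 7.43 in sh-PIP4K2B cells and 7.32, 7.35 and 7.40 in control cells, which overlapped. The mean difference was -0.0969 in differentiated and 0.0461 in etoposide-treated cells, so the array medians themselves have an interaction of -0.143. Each value was therefore also estimated in a model with array median as a further term, called the median-adjusted fit below.

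The target was checked first. Pip4k2b read 9.46, 9.64 and 9.55 in sh-PIP4K2B cells, against 10.69, 10.69 and 10.68 in control cells after differentiation, and 9.92, 9.74 and 9.63 in sh-PIP4K2B cells, against 10.75, 10.71 and 10.48 in control cells after etoposide. Every sh-PIP4K2B array lay below every control array of its treatment. The depletion thus differed by -0.26 (SE 0.14, adjusted p = 0.206) between the treatments, which was not called, and by -0.54, adjusted p = 0.124 in the median-adjusted fit. The kinases of the same family stood at an interaction of 0.35 (SE 0.10, adjusted p = 0.0435) for Pip4k2a and -0.03 (SE 0.10, adjusted p = 0.872) for Pip4k2c, and Taf3 at -0.06 (SE 0.09, adjusted p = 0.661). None of these was called. Of 9 markers of myoblasts and myotubes, the fusion protein gene Mymk, also called myomaker, averaged 9.67 and 9.26 in sh-PIP4K2B and control differentiated cells and 7.86 and 7.97 in sh-PIP4K2B and control etoposide-treated cells, and Myog, the gene of myogenin, 7.95, 7.70, 6.93 and 6.93 in the same order (log2 signal). In control cells Mymk, Myog, Acta1, Myh3 and Myod1 read higher after differentiation than after etoposide, and Myf5, Des, Chrna1 and Cdh15 lower. The summed linear signal of the 9 markers was 21075 to 21492 in sh-PIP4K2B and 18127 to 19009 in control differentiated cells. After etoposide it was 21806 to 23372 in sh-PIP4K2B and 23568 to 25208 in control cells. The sum of 4 macrophage markers lay between 350 and 468 over the 12 arrays and that of 3 endothelial markers between 224 and 331. On these arrays silent genes also give a signal above 0. RNA came from whole cultures, in which fewer cells of a type and less RNA per cell cannot be told apart.

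On the deposited values the interaction was called for 801 genes, 4.02% of those tested. It was positive for 413 (2.07%) and negative for 388 (1.95%), and without adjustment of p 1365 passed (652 and 713). The median-adjusted fit called 96 genes (0.481%), 57 positive (0.286%) and 39 negative (0.196%). The calls of both fits shared 68 genes in the same direction, 53 positive and 15 negative, and the remaining 28 were called only in the median-adjusted fit, each with the same sign on the deposited values. The median SE of an interaction was 0.132 on the deposited values and 0.144 with the array median. The median size of the 413 positive values was 0.62 on the deposited values and 0.45 with the array median, and that of the 388 negative ones 0.55 and 0.28. Across genes, the interaction correlated with the slope of the gene on the array median with r = -0.679, a description over genes that share the same 12 arrays. Positive calls came from brighter genes, with a median signal of 8.94, and negative ones from dimmer genes, with 7.26, where the median of all genes was 7.97.

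The size of the call set on the deposited values depended on single arrays. It was 185 without sh-PIP4K2B differentiated replicate 2, 349 without replicate 3 of that group, 180 and 228 without differentiated control replicates 1 and 2, 252 and 482 without etoposide-treated control replicates 1 and 3, and 2668, 193 and 356 without sh-PIP4K2B etoposide-treated replicates 1, 2 and 3. In the median-adjusted fit it was 37 and 44 without sh-PIP4K2B differentiated replicates 1 and 3, 61 and 38 without differentiated control replicates 1 and 3, 34 without etoposide-treated control replicate 3 and 14 without sh-PIP4K2B etoposide-treated replicate 1. That array had the lowest median of its group, and the median SD of a gene was 0.137 in sh-PIP4K2B and 0.0952 in control cells after etoposide, against 0.0730 in sh-PIP4K2B and 0.0704 in control cells after differentiation. Of the 801 genes 145 were called whichever of the 12 arrays was left out, 119 positive and 26 negative, and 64 of these were also among the 96 (52 positive and 12 negative). The median-adjusted call held without each of the 12 arrays in turn for 12 genes. These were C1qtnf3, Cd200, Dcn, Fmo1, Hmgcs1, Lix1, Lrrn1, Mest and Tnnt3, with a positive interaction, and Grem1, Prr11 and Trp53i11, with a negative one.

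**Figure D1:**
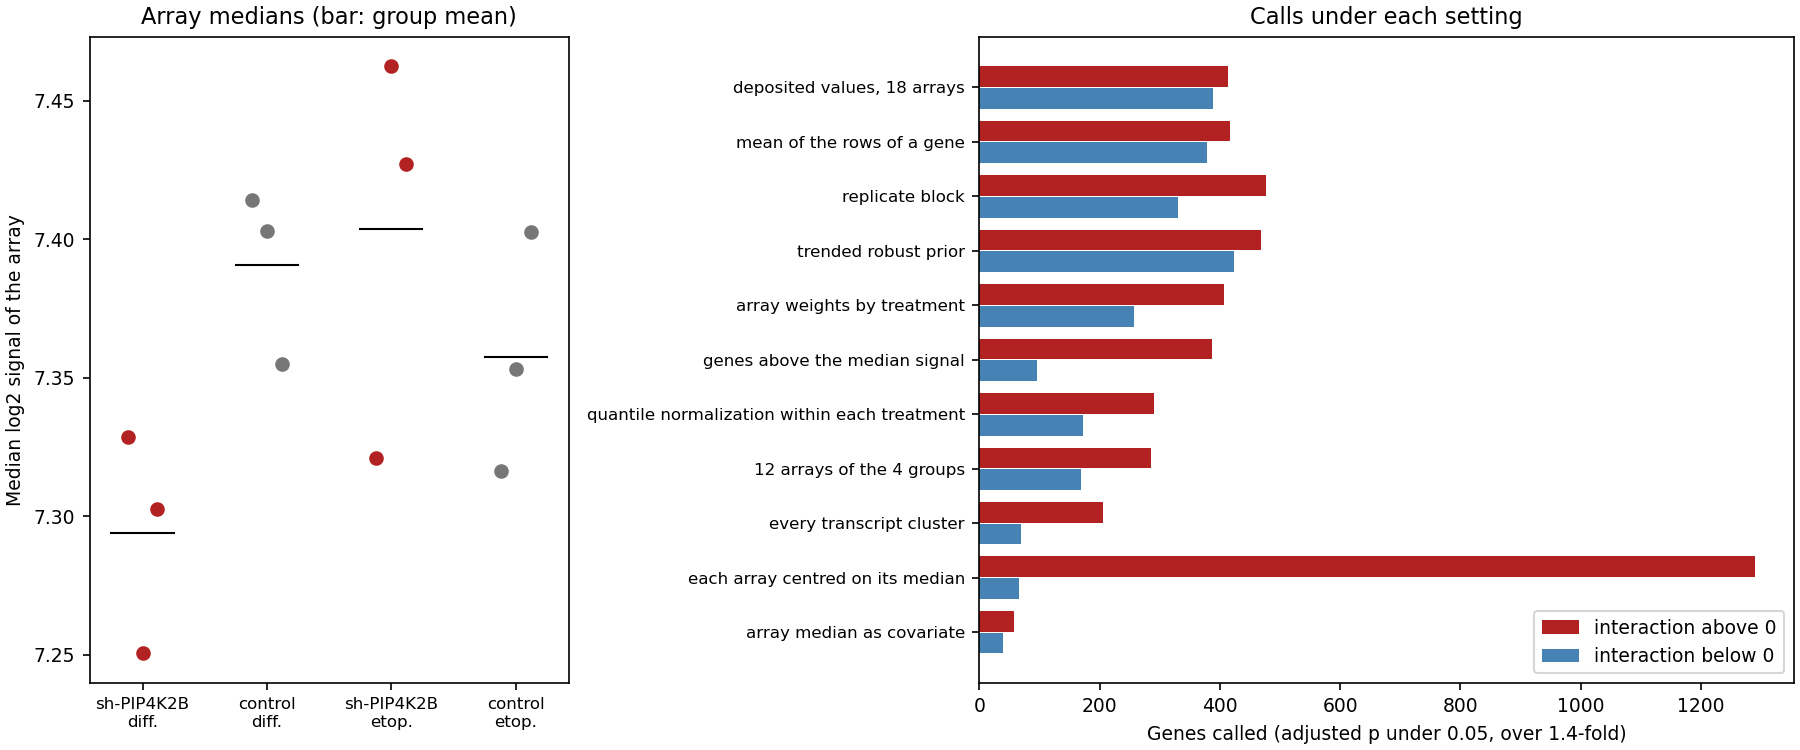
Median log2 signal of each of the 12 arrays (left; points are arrays, bars group means), and the number of genes called with an interaction above or below 0 under each setting (right). The 3 sh-PIP4K2B differentiated arrays lie below the 3 control ones, and the count was 413 above and 388 below 0 on the deposited values, 1290 and 66 with each array centred on its median and 57 and 39 with the array median as covariate.

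Most called interactions combined small changes of opposite sign. In 754 of the 801 genes the change on depletion had opposite signs in the treatments, and the same held for 13372 of all 19938 genes, so opposite signs were common whether or not a gene was called. For 285 of the 413 positive and 349 of the 388 negative calls neither change passed the threshold by itself. The depletion was called in differentiated cells for 211 genes (1.06%) and in etoposide-treated cells for 173 (0.868%). Of the positive interactions 71 had a called change only in differentiated cells and 51 only after etoposide, and of the negative ones 29 and 9. Among the 53 positive genes called in both fits, 21 had a called change only in differentiated cells, 10 only after etoposide, 4 in both and 18 in neither, and 42 changed upward in differentiated and downward in etoposide-treated cells. Among the 15 negative ones the counts were 5, 7, 1 and 2, and 8 changed downward in differentiated and upward in etoposide-treated cells. Over all 19938 genes 5527 changed upward in differentiated and downward in etoposide-treated cells, and 7845 the other way round. A call for a large difference between the changes also favours opposite signs. Both changes were called with opposite sign for 2 genes, Trdn and Grem1.

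**Figure D2:**
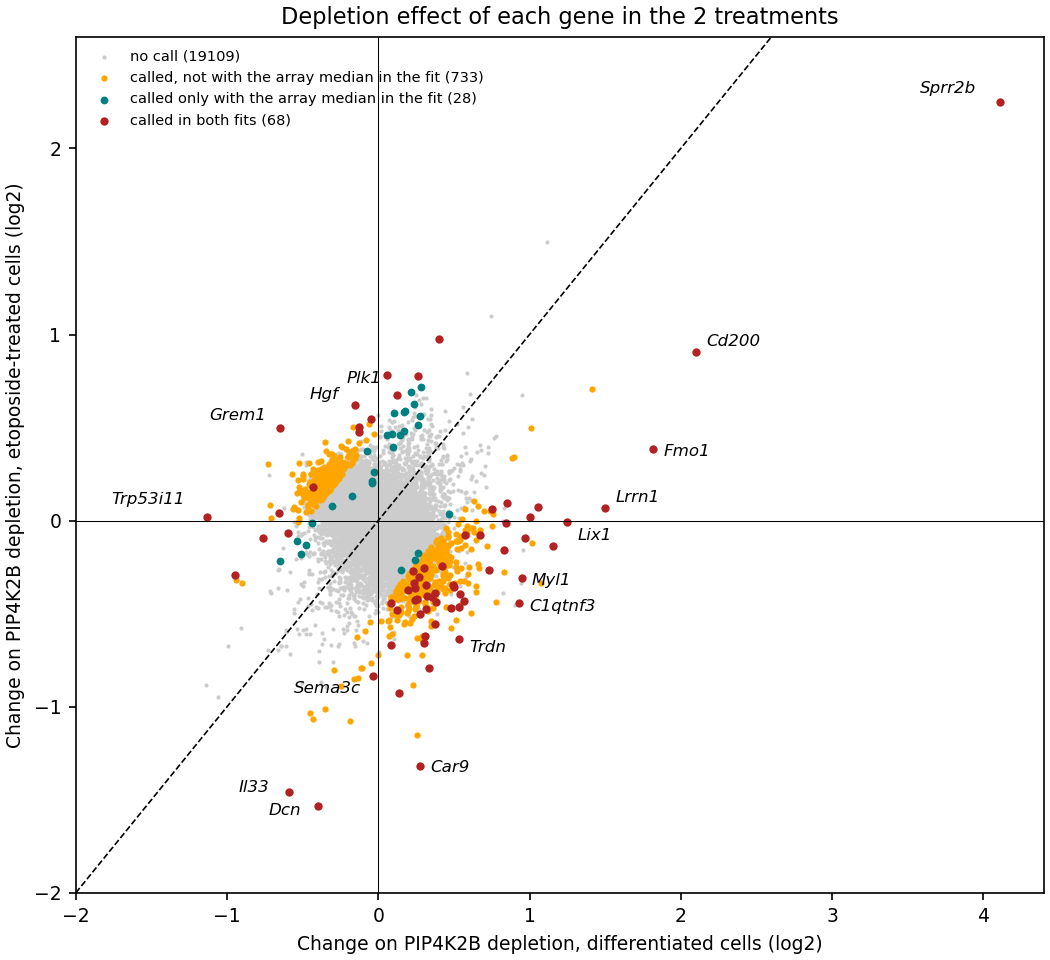
Change in log2 signal on PIP4K2B depletion in differentiated cells (x axis) and in etoposide-treated cells (y axis) for 19938 genes, coloured by their interaction call; the dashed line marks equal changes. Among the 68 genes called in both fits, Sprr2b, Fmo1, Lrrn1, Car9 and C1qtnf3 lie below the line and Grem1, Trp53i11 and Hgf above it.

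The contractile apparatus held some of the most stable positive interactions. Of 53 genes of the sarcomere, the repeating unit of actin and myosin filaments, 9 were called positive and 1 negative (4 and 0 in the median-adjusted fit), while the median of the list was -0.05, close to the -0.04 of all genes. In the median-adjusted fit the list median was 0.11, against -0.01 for all genes. The call counts of this and the following lists stand against 2.07% positive and 1.95% negative over all genes. In the median-adjusted fit these shares were 0.286% and 0.196%. Depletion alone was called for 7 of the 53 in differentiated cells, each higher, and for 1 after etoposide, which was lower. The fast troponin T gene Tnnt3, whose product holds the calcium switch on the thin filament, read 10.97, 11.01 and 10.89 in differentiated sh-PIP4K2B cells against 10.04, 10.08 and 10.25 in their controls, and 9.40, 9.46 and 9.32 in etoposide-treated sh-PIP4K2B cells against 9.49, 9.52 and 9.64 in theirs. All sh-PIP4K2B arrays were above the control arrays after differentiation and all were below them after etoposide. The interaction was 0.99 (SE 0.10, adjusted p = 2.29e-05) and 0.99, adjusted p = 0.00108 in the median-adjusted fit, with a change of 0.83 (adjusted p = 1.42e-06) in differentiated and -0.16 (adjusted p = 0.282) in etoposide-treated cells. The regulatory light chain of fast myosin, Mylpf, read 8.64, 8.62 and 8.61 in sh-PIP4K2B and 8.02, 7.96 and 8.19 in control differentiated cells, and 7.61, 7.65 and 7.61 in sh-PIP4K2B and 8.04, 8.02 and 8.12 in control etoposide-treated cells. The groups did not overlap in either treatment and lay in opposite order. Its interaction was 0.999 (SE 0.10, adjusted p = 2.29e-05) and 0.97, adjusted p = 0.00121 in the median-adjusted fit, called without all but 1 of the 12 arrays there. For the essential light chain Myl1 the arrays gave 7.74, 8.22 and 7.99 in differentiated sh-PIP4K2B cells against 6.88, 6.98 and 7.24 in their controls, and 7.39, 7.51 and 7.50 in etoposide-treated sh-PIP4K2B cells against 7.85, 7.71 and 7.76 in theirs. The interaction of 1.26 (SE 0.19, adjusted p = 0.0013) was 1.13, adjusted p = 0.0377 with the array median, a call kept in 4 of the 12 leave-one-array-out fits. The Z-disc protein gene Pdlim3, whose product binds alpha-actinin, read 10.77, 10.78 and 10.75 in sh-PIP4K2B and 9.72, 9.87 and 9.71 in control differentiated cells, and 10.80, 10.78 and 10.99 in sh-PIP4K2B and 10.73, 10.87 and 10.91 in control etoposide-treated cells. The etoposide groups overlapped, and the interaction of 0.99 (SE 0.11, adjusted p = 4.38e-05) (1.004, adjusted p = 0.00124 in the median-adjusted fit) came with changes of 1.01 in differentiated and 0.02 in etoposide-treated cells. Myom2, a protein of the M-band, and the slow troponin C gene Tnnc1 were called on the deposited values only, at 0.91 (SE 0.16, adjusted p = 0.00517) and 0.66 (SE 0.15, adjusted p = 0.0211). In Myom2 the change after etoposide was called, at -0.62 (adjusted p = 0.00364), and in Tnnc1 that after differentiation, at 0.62 (adjusted p = 0.00205). The Z-disc protein gene Myot was the negative one on the list, at -0.55. The unconventional myosin Myo18b, outside the list, was among the 15 most negative values picked for naming, at -0.75 (SE 0.19, adjusted p = 0.0334). Its 20 transcript clusters all lay below 0, between -0.75 and -0.17, but with the array median 4 of the 20 lay above 0 and none lay below -0.37.

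Excitation-contraction coupling, by which a nerve impulse releases calcium from the sarcoplasmic reticulum, gave the highest median of the lists of 14 or more genes on the deposited values, 0.29. It was 0.20 in the median-adjusted fit, below the 0.21 of the cholesterol genes. The list had 9 of 28 genes called positive and none negative (4 and 0 in the median-adjusted fit). The positive ones were Atp2a1, Cacna2d1, Casq2, Chrnb1, Chrnd, Chrng, Jph2, Srl and Trdn. Triadin, encoded by Trdn, anchors calsequestrin to the calcium release channel. It read 11.62, 11.67 and 11.70 in differentiated sh-PIP4K2B cells against 11.07, 11.09 and 11.22 in their controls, and 9.49, 8.98 and 9.50 in etoposide-treated sh-PIP4K2B cells against 10.08, 9.94 and 9.86 in theirs. The sh-PIP4K2B arrays were the higher ones after differentiation and the lower ones after etoposide, without overlap. Trdn thus rose by 0.53 (adjusted p = 0.00781) on depletion in differentiated cells and changed by -0.64 (adjusted p = 0.00176) in etoposide-treated cells. The interaction was 1.17 (SE 0.15, adjusted p = 0.000331), and 0.93, adjusted p = 0.0153 with the array median, where it was kept in 8 of 12 leave-one-array-out fits. The gene has 19 transcript clusters on the array. The change was above 0 for all 19 in differentiated cells (0.29 to 1.41) and below 0 for 18 in etoposide-treated cells (-1.09 to 0.26). The interaction of the clusters lay between 0.35 and 2.41, beyond 1.4-fold for 17, and between 0.16 and 2.03 with the array median. The clusters lie in 1 gene and share the arrays, so they are not replicates. Casq2, the cardiac and slow-muscle calsequestrin that stores the calcium, read 7.63, 7.74 and 7.86 in sh-PIP4K2B and 6.92, 6.96 and 7.17 in control differentiated cells, and 6.62, 6.46 and 6.68 in sh-PIP4K2B and 6.80, 6.86 and 6.92 in control etoposide-treated cells. Here too the order of the groups turned between the treatments, with an interaction of 0.997 (SE 0.12, adjusted p = 0.000122) (0.96, adjusted p = 0.00461).

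**Figure D3:**
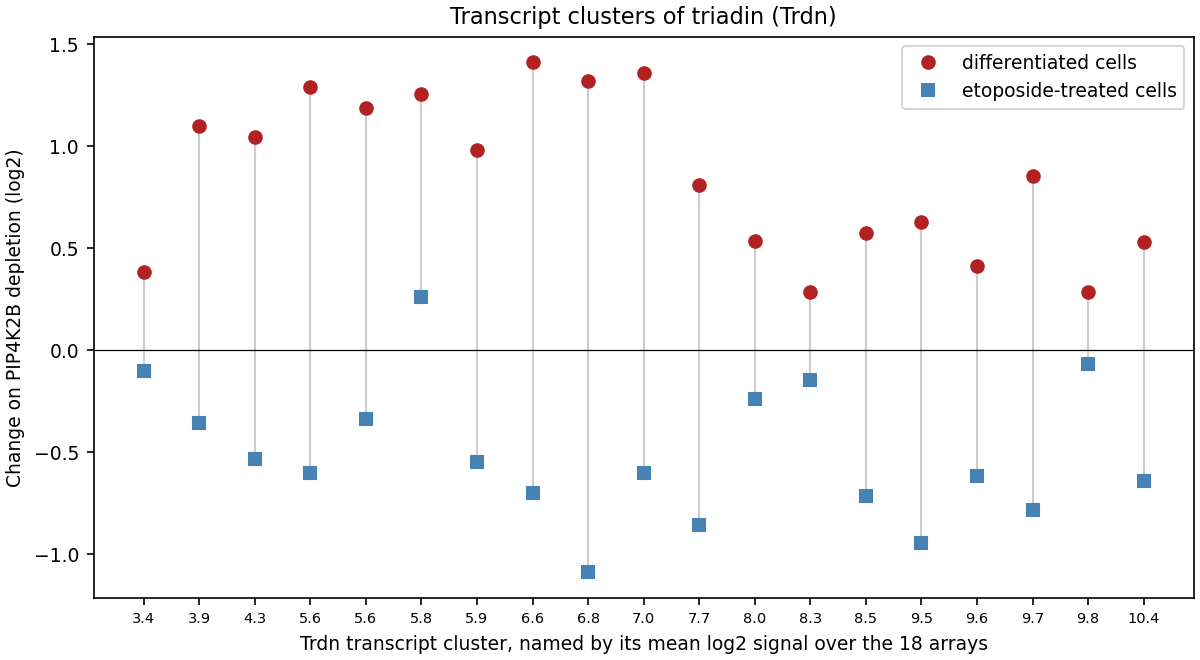
Change in log2 signal on PIP4K2B depletion for each of the 19 transcript clusters of Trdn, ordered by mean signal, in differentiated (circles) and etoposide-treated cells (squares). The circle lies above the square for every cluster, by 0.35 to 2.41.

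Of the acetylcholine receptor, which receives the nerve's signal at the muscle membrane, the delta subunit Chrnd read 9.73, 9.80 and 9.79 in differentiated sh-PIP4K2B cells against 9.04, 8.82 and 8.92 in their controls, and 9.96, 9.87 and 9.86 in etoposide-treated sh-PIP4K2B cells against 10.01, 9.91 and 9.80 in theirs. The groups were separate in differentiated cells and overlapped after etoposide, and the interaction was 0.86 (SE 0.12, adjusted p = 0.000835) (0.67, adjusted p = 0.0245 in the median-adjusted fit, kept there in 7 of the 12 leave-one-array-out fits). The beta subunit Chrnb1 stood at 0.67 (SE 0.09, adjusted p = 0.000348) (0.58, adjusted p = 0.00988), and the fetal gamma subunit Chrng at 0.65 (SE 0.12, adjusted p = 0.00838), which was not called with the array median. Among 22 regulators of myogenesis 2 were positive and 1 negative on the deposited values, with a list median of -0.01. Myf5, a transcription factor of early myoblasts, read 11.33, 11.30 and 11.34 in sh-PIP4K2B and 11.05, 11.06 and 11.05 in control differentiated cells, and 11.56, 11.54 and 11.64 in sh-PIP4K2B and 11.88, 11.89 and 11.89 in control etoposide-treated cells. All sh-PIP4K2B arrays lay above the control arrays after differentiation and below them after etoposide. Its interaction of 0.57 (SE 0.09, adjusted p = 0.0031) was the only one of the list called in both fits, at 0.63, adjusted p = 0.0153 with the array median, where 8 of the 12 leave-one-array-out fits kept it. With quantile normalization within each treatment it was 0.47 (adjusted p = 0.00816), short of 1.4-fold. Mef2a, which acts with the myogenic factors, was called at 0.52 (SE 0.10, adjusted p = 0.0087) and Id1, an inhibitor of them, at -0.50 (SE 0.12, adjusted p = 0.0284), on the deposited values only. Myog stood at 0.24 (SE 0.13, adjusted p = 0.202) and Myod1 at 0.05 (SE 0.11, adjusted p = 0.776), and neither was called. Of 28 genes of myoblast fusion 3 were called positive, Cdh15, Itga7 and Mymk, and 0 in the median-adjusted fit. Over all genes 2.07% and 0.286% were called positive in these fits. Mymk read 9.62, 9.63 and 9.75 in differentiated sh-PIP4K2B cells against 9.18, 9.16 and 9.43 in their controls, and 7.65, 8.08 and 7.84 in etoposide-treated sh-PIP4K2B cells against 7.98, 7.999 and 7.95 in theirs, an interaction of 0.53 (SE 0.15, adjusted p = 0.0457) that was kept in 3 of the 12 leave-one-array-out fits and not with a replicate block (adjusted p = 0.0552). Of 22 genes of muscle metabolism none was called in either fit by limma. Other muscle genes taken from the paper, Acta1, Myh3 and Ckm, stood at 0.32 (SE 0.15, adjusted p = 0.139), 0.41 (SE 0.12, adjusted p = 0.0547) and 0.01 (SE 0.12, adjusted p = 0.946), without a call. Myh3 was taken for the paper's MYH, and Myl1 above for its MYL, without a further check.

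**Figure D4:**
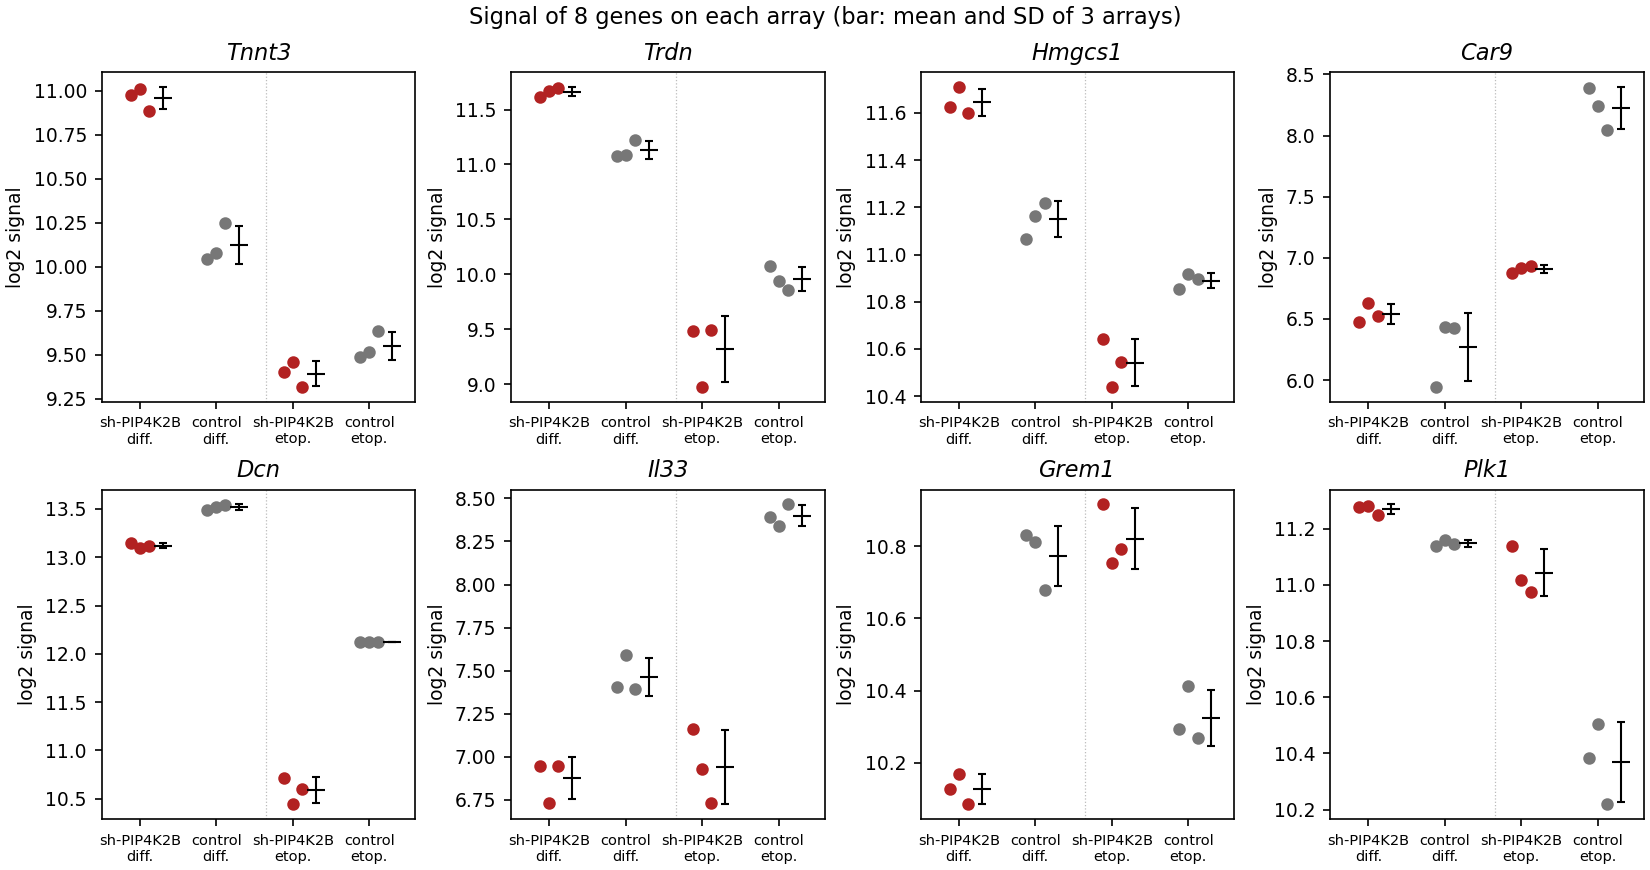
Log2 signal of 8 genes on each array, with sh-PIP4K2B cells in red and control cells in grey after differentiation (left pair) and after etoposide (right pair); bars are mean and SD of 3 arrays. In Tnnt3, Trdn, Hmgcs1, Car9 and Grem1 the order of sh-PIP4K2B and control arrays turned between the treatments. In Dcn and Il33 the sh-PIP4K2B arrays were lower in both, with the wider gap after etoposide.

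Genes of the G2 and M phases serve cells that prepare for and go through division. Their interactions lay mostly below 0. All 38 measured genes of this list were above 0 on depletion in both treatments, against 8911 and 11229 of all 19938 genes in differentiated and etoposide-treated cells. The median change was 0.27 in differentiated and 0.45 in etoposide-treated cells. Of the 38, depletion was called for 1 in differentiated cells and 15 in etoposide-treated cells, each higher. The interaction was below 0 for 34 of them and above 0 for 4, with a median of -0.17. Over all genes it was above 0 for 8974. On the deposited values 1 of the 38 was called, the mitotic kinase gene Plk1. That share was close to the 1.95% of all genes called negative. In the median-adjusted fit the median was -0.31 and 5 were called, each negative: Ccna2, Cdc20, Kif20a, Kif23 and Plk1. Over all genes 0.196% were called negative there. With each array centred on its median the list median was -0.03, against 0.10 for all genes. Plk1 read 11.28, 11.28 and 11.25 in sh-PIP4K2B and 11.14, 11.16 and 11.14 in control differentiated cells, and 11.14, 11.02 and 10.98 in sh-PIP4K2B and 10.38, 10.50 and 10.22 in control etoposide-treated cells. The sh-PIP4K2B arrays were above the control arrays in both treatments, narrowly in differentiated cells. Depletion changed it by 0.12 (adjusted p = 0.36) and 0.67 (adjusted p = 0.000113), and the interaction was -0.55 (SE 0.12, adjusted p = 0.0195) (-0.72, adjusted p = 0.0205 with the array median). The call was kept in 9 and 7 of the 12 leave-one-array-out fits. The other G2 and M genes named here were singled out after their values had been seen. Cdc20, the activator of the anaphase-promoting complex, read 10.30, 10.42 and 10.39 in differentiated sh-PIP4K2B cells against 10.12, 10.20 and 10.27 in their controls, and 10.37, 10.15 and 10.34 in etoposide-treated sh-PIP4K2B cells against 9.72, 9.64 and 9.75 in theirs, an interaction of -0.41 (SE 0.11, adjusted p = 0.0348), short of 1.4-fold, and of -0.58, adjusted p = 0.0272 with the array median. Ccna2, cyclin A2, stood at -0.41 and -0.50, adjusted p = 0.0425, and the mitotic kinesins Kif20a and Kif23 at -0.44 and -0.51, adjusted p = 0.0153, and -0.39 and -0.58, adjusted p = 0.0205. Beyond the list Kif18b, Cdca3, Ckap2l, Kif14, Espl1 and Prr11 were among the 39 negative calls of the median-adjusted fit. Of 40 genes of DNA replication the licensing factor Cdt1 was called in both fits, at -0.59 (SE 0.11, adjusted p = 0.0087) and -0.75, adjusted p = 0.0088, and the helicase subunit Mcm3 in the median-adjusted fit only, at -0.60, adjusted p = 0.0116. The list median was -0.07, -0.15 with the array median and 0.08 with each array centred on its median. With each array centred on its median neither Plk1 nor Cdt1 was called, at -0.41 (adjusted p = 0.0691) and -0.45 (adjusted p = 0.0465, short of 1.4-fold). Cdt1 read 9.49, 9.57 and 9.50 in sh-PIP4K2B and 9.61, 9.52 and 9.57 in control differentiated cells, and 10.33, 10.28 and 10.17 in sh-PIP4K2B and 9.72, 9.78 and 9.64 in control etoposide-treated cells, overlapping after differentiation and higher on every sh-PIP4K2B array after etoposide. In control cells the median G2 and M gene was 0.50 higher after differentiation than after etoposide, so the treatments differed in the starting level of these genes.

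Promoter sequence is shown for both kinds of gene to let a reader see where they differ. The stretches are RefSeq's, of build GRCm38.p6, from 250 bases before to 50 after the annotated start, written in the direction of the gene. For Plk1 (chr7:122159185-122159484, plus strand) and Cdc20 (chr4:118437294-118437593, minus strand) capitals mark TTTGAA, the cell cycle homology region, and CCAAT, the box bound by NF-Y.
Plk1: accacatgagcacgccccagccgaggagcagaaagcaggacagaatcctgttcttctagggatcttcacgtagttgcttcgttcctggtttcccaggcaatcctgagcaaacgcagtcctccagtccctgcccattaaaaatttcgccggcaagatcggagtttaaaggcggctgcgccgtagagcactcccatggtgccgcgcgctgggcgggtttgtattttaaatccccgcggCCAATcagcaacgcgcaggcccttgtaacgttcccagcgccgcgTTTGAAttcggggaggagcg
Cdc20: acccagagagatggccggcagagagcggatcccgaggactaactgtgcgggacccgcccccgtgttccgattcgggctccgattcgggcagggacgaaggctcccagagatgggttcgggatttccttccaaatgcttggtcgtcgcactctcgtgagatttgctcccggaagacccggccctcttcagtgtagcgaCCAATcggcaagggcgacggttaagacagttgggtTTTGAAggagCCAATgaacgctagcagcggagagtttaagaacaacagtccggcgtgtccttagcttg
Of the 5 G2 and M genes called with the array median, 3 had a promoter in the table (Plk1, Cdc20 and Kif23), and all 3 held both motifs, on either strand. Of all 32851 promoters 17.9% held TTTGAA and 37.4% CCAAT. For Mylpf (chr7:127211358-127211657, plus strand) capitals mark CAGCTG, an E-box of the kind that myogenic factors bind.
Mylpf: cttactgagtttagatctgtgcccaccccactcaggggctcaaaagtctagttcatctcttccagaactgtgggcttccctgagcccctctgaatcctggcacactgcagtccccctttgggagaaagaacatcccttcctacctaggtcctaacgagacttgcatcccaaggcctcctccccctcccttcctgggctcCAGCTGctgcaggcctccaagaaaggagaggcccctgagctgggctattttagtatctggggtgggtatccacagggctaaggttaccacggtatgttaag
Of the 10 called sarcomere genes 6 had a promoter in the table and 4 of these held this E-box (Klhl41, Myl1, Mylpf and Pdlim3), as did 16.3% of all promoters. These matches describe the letters in a window and are no evidence of binding.

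Cholesterol synthesis was the list with the most called members on the deposited values, though not in the median-adjusted fit. Of its 27 genes 11 were positive and none negative: Cyp51, Fdft1, Hmgcs1, Hsd17b7, Idi1, Insig1, Lss, Msmo1, Sc5d, Sqle and Stard4. The interaction was above 0 for all 27, with a median of 0.24, and for 21 with the array median, with a median of 0.21, but only Fdft1 and Hmgcs1 were called there. The change on depletion was above 0 for 27 in differentiated cells, 4 of them called, and for 4 in etoposide-treated cells, where 1 was called lower. Hmgcs1, the synthase that makes HMG-CoA, read 11.63, 11.71 and 11.60 in differentiated sh-PIP4K2B cells against 11.07, 11.16 and 11.22 in their controls, and 10.64, 10.44 and 10.55 in etoposide-treated sh-PIP4K2B cells against 10.85, 10.92 and 10.89 in theirs. The sh-PIP4K2B arrays were the higher ones after differentiation and the lower ones after etoposide. The interaction was 0.84 (SE 0.09, adjusted p = 5.52e-05) and 0.73, adjusted p = 0.00252 with the array median, and both calls were kept whichever array was left out. Squalene synthase, Fdft1, read 12.41, 12.42 and 12.38 in sh-PIP4K2B and 12.01, 12.15 and 12.10 in control differentiated cells, and 11.61, 11.61 and 11.70 in sh-PIP4K2B and 12.01, 11.93 and 12.02 in control etoposide-treated cells, again without overlap and in opposite order. It stood at 0.66 (SE 0.09, adjusted p = 0.00065) and 0.64, adjusted p = 0.0104. Insig1, which holds the sterol sensor in the endoplasmic reticulum, read 11.63, 11.69 and 11.63 in differentiated sh-PIP4K2B cells against 11.52, 11.59 and 11.63 in their controls, and 10.63, 10.41 and 10.69 in etoposide-treated sh-PIP4K2B cells against 11.08, 11.12 and 11.39 in theirs. Its change was called only after etoposide, at -0.62 (adjusted p = 0.000348), against 0.07 (adjusted p = 0.625) after differentiation, with an interaction of 0.69 (SE 0.12, adjusted p = 0.00552) (0.63, adjusted p = 0.0948). The isomerase Idi1 and the demethylases Cyp51 and Msmo1 stood at 0.93 (SE 0.22, adjusted p = 0.0262), 0.83 (SE 0.13, adjusted p = 0.00224) and 0.87 (SE 0.15, adjusted p = 0.00406), without a call in the median-adjusted fit. The call of Idi1 was kept in 6 of the 12 leave-one-array-out fits. The promoter of Hmgcs1 (chr13:119690101-119690400, plus strand) is printed with TCACCCCAC in capitals, a match to the sterol element TCACNCCAC.
Hmgcs1: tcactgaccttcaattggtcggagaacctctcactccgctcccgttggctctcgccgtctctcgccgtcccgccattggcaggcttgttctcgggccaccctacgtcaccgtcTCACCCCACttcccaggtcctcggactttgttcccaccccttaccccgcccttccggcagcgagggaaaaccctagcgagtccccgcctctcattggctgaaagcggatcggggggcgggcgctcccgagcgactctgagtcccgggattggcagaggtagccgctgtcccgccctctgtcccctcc
Of 8 called genes of this list with a promoter in the table, 1 (Hmgcs1) held the sterol element on either strand, as did 1.2% of all promoters, and all 8 held CCAAT.

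Genes induced by low oxygen had a median interaction of 0.28 (0.19 in the median-adjusted fit), with 4 of 24 called positive and 1 negative. Over all genes the medians were -0.04 and -0.01, and 2.07% were called positive and 1.95% negative. Car9, a membrane carbonic anhydrase that is a classical target of HIF, read 6.47, 6.63 and 6.52 in sh-PIP4K2B and 5.95, 6.43 and 6.43 in control differentiated cells, and 6.88, 6.92 and 6.93 in sh-PIP4K2B and 8.39, 8.24 and 8.05 in control etoposide-treated cells. After etoposide every sh-PIP4K2B array was below every control array, and after differentiation every one was above. The signal in differentiated cells was low, so a change there may be understated. Car9 changed by -1.32 (adjusted p = 3.76e-06) after etoposide and by 0.28 (adjusted p = 0.154) in differentiated cells, and its interaction was 1.59 (SE 0.17, adjusted p = 4.96e-05) (1.41, adjusted p = 0.00339 with the array median). The kinase of pyruvate dehydrogenase Pdk1, the mitophagy receptor Bnip3 and the histone demethylase Kdm3a stood at 0.75 (SE 0.13, adjusted p = 0.00489), 0.68 (SE 0.16, adjusted p = 0.0285) and 0.62 (SE 0.13, adjusted p = 0.0178), and the vasodilator peptide gene Adm at -0.61 (SE 0.16, adjusted p = 0.0364). These 4 were not called with the array median.

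Decorin, Dcn, a small leucine-rich proteoglycan that binds collagen and TGF-beta, read 13.14, 13.10 and 13.12 in differentiated sh-PIP4K2B cells against 13.49, 13.52 and 13.54 in their controls, and 10.71, 10.45 and 10.60 in etoposide-treated sh-PIP4K2B cells against 12.12, 12.12 and 12.12 in theirs. It was lower on every sh-PIP4K2B array in both treatments, with changes of -0.40 (adjusted p = 0.00289) in differentiated and -1.53 (adjusted p = 3.1e-10) in etoposide-treated cells, and only the second passed the fold limit. The interaction was 1.14 (SE 0.10, adjusted p = 8.11e-06) and 1.05, adjusted p = 0.000329 with the array median, kept whichever array was left out in both fits. Dcn is also the brightest of 4 fibroblast markers, whose summed linear signal was 9312 to 9636 in sh-PIP4K2B and 12243 to 12633 in control differentiated cells, and 1978 to 2259 in sh-PIP4K2B and 4994 to 5090 in control etoposide-treated cells. Of the other 3 markers Dpt, dermatopontin, was called negative at -0.73 (SE 0.15, adjusted p = 0.0118), near the bottom of the signal range (5.29, 5.26 and 5.44 in sh-PIP4K2B and 6.30, 5.92 and 5.91 in control differentiated cells, and 5.42, 5.54 and 5.54 in sh-PIP4K2B and 5.41, 5.58 and 5.48 in control etoposide-treated cells), and Pdgfra and Thy1 were not called, so the 4 did not move together. The part of other cell types in these values was not tested. Of 31 proteoglycan and hyaluronan genes the collagen-binding Aspn and the hyaluronan synthase Has2 were also called positive, at 0.89 (SE 0.24, adjusted p = 0.0383) and 0.72 (SE 0.14, adjusted p = 0.00838), on the deposited values only. The alarmin Il33 read 6.94, 6.73 and 6.95 in differentiated sh-PIP4K2B cells against 7.41, 7.59 and 7.39 in their controls, and 7.16, 6.93 and 6.73 in etoposide-treated sh-PIP4K2B cells against 8.39, 8.34 and 8.46 in theirs. It fell in both treatments, with changes of -0.59 (adjusted p = 0.00187) and -1.46 (adjusted p = 9.02e-08) and an interaction of 0.87 (SE 0.14, adjusted p = 0.00224) (0.81, adjusted p = 0.0444), kept in 5 of the 12 median-adjusted leave-one-array-out fits. C1qtnf3, a secreted relative of adiponectin, read 10.44, 10.54 and 10.51 in sh-PIP4K2B and 9.55, 9.62 and 9.53 in control differentiated cells, and 9.07, 8.85 and 9.13 in sh-PIP4K2B and 9.34, 9.37 and 9.67 in control etoposide-treated cells. The order of the groups turned between the treatments, and the interaction of 1.37 (SE 0.13, adjusted p = 2.05e-05) (1.32, adjusted p = 0.00108) was kept throughout. Of 43 guidance genes the secreted semaphorins Sema3c and Sema3d were called positive in both fits, and Plxna4 and Sema6d negative on the deposited values only, at -0.67 and -0.59. Sema3c read 12.78, 12.75 and 12.75 in differentiated sh-PIP4K2B cells against 12.83, 12.75 and 12.81 in their controls, and 11.19, 11.07 and 11.19 in etoposide-treated sh-PIP4K2B cells against 11.98, 11.98 and 12.01 in theirs. The differentiated groups overlapped and the etoposide groups did not, with changes of -0.04 and -0.84 (adjusted p = 1.2e-06) and an interaction of 0.80 (SE 0.10, adjusted p = 0.000124) (0.79, adjusted p = 0.00313). Sema3d stood at 1.13 (SE 0.18, adjusted p = 0.00281) (0.65, adjusted p = 0.0377), and its median-adjusted call was kept in 3 of the 12 leave-one-array-out fits. Of 17 serpins and plasminogen activators, Serpinb1a, Serpinb6b and Serpinb9 were positive, at 0.76, 1.06 and 0.91, and Serpinb6b also in the median-adjusted fit, where 4 of the 12 leave-one-array-out fits kept the call. The 3 are close relatives encoded on chromosome 13, and whether their probes share signal was not tested. The proteoglycan, guidance and serpin counts on the deposited values stand against 2.07% of all genes called positive and 1.95% negative.

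The largest positive interaction of a named gene was that of Sprr2b, whose product belongs to the skin's cornified envelope. The arrays read 9.45, 9.55 and 9.46 in sh-PIP4K2B and 5.16, 5.59 and 5.37 in control differentiated cells, and 8.11, 7.88 and 7.98 in sh-PIP4K2B and 5.82, 5.50 and 5.90 in control etoposide-treated cells. No sh-PIP4K2B array overlapped with the controls of its treatment. Sprr2b rose by 4.11 (adjusted p = 7.52e-13) and by 2.25 (adjusted p = 1.36e-08), and the interaction was 1.86 (SE 0.19, adjusted p = 2.29e-05) (1.61, adjusted p = 0.00188 with the array median). Of 31 small proline-rich and epidermal genes Sprr2b and Pkp2 were positive in both fits and Sprr2h negative on the deposited values only, at -0.71. The 4 keratinocyte markers had a summed linear signal of 649 to 695 in sh-PIP4K2B and 583 to 611 in control differentiated cells and of 1050 to 1085 in sh-PIP4K2B and 845 to 889 in control etoposide-treated cells, and none of the 4 had a called interaction. Cd200, an immunoglobulin-family surface protein that restrains myeloid cells, read 9.97, 10.03 and 10.07 in differentiated sh-PIP4K2B cells against 7.81, 8.04 and 7.93 in their controls, and 8.71, 8.44 and 8.61 in etoposide-treated sh-PIP4K2B cells against 7.72, 7.65 and 7.67 in theirs, with an interaction of 1.19 (SE 0.12, adjusted p = 2.29e-05) (1.02, adjusted p = 0.00154). The flavin monooxygenase Fmo1 read 11.13, 11.10 and 11.08 in sh-PIP4K2B and 9.17, 9.22 and 9.47 in control differentiated cells, and 9.96, 9.64 and 10.02 in sh-PIP4K2B and 9.50, 9.46 and 9.52 in control etoposide-treated cells. It rose after differentiation, by 1.82 (adjusted p = 4.59e-10), and stood at 0.38 (adjusted p = 0.0215) after etoposide, short of 1.4-fold, with an interaction of 1.43 (SE 0.13, adjusted p = 8.11e-06) (1.28, adjusted p = 0.000522). Lrrn1, a leucine-rich repeat membrane protein, read 7.76, 7.61 and 7.73 in differentiated sh-PIP4K2B cells against 6.02, 6.30 and 6.29 in their controls, and 6.14, 6.06 and 6.31 in etoposide-treated sh-PIP4K2B cells against 6.09, 6.13 and 6.08 in theirs. The etoposide groups overlapped, and the change there was 0.07 (adjusted p = 0.672), against 1.50 (adjusted p = 1.96e-09) in differentiated cells. All etoposide-treated arrays lay well below the 7.97 median of all genes, and at such low signal a change may be understated. The control arrays of Sprr2b were low as well. The Lrrn1 interaction of 1.43 (SE 0.12, adjusted p = 5.78e-06) (1.43, adjusted p = 0.000164) was kept whichever array was left out. Lix1 was alike, at 1.25 (adjusted p = 7.95e-07) and -0.01 (adjusted p = 0.983), with an interaction of 1.25 (SE 0.14, adjusted p = 8.73e-05) (1.30, adjusted p = 0.00248). The desmosomal plakophilin Pkp2 and the smooth muscle light chain Myl9 stood at 0.98 (SE 0.13, adjusted p = 0.000382) and 0.69 (SE 0.10, adjusted p = 0.000858) and were called in both fits, with the median-adjusted call kept in 9 and 8 of the 12 leave-one-array-out fits. Frmpd1 was called at 1.29 (SE 0.19, adjusted p = 0.0013), and in the median-adjusted fit at 0.93, adjusted p = 0.0478, which was kept in 1 of the 12 leave-one-array-out fits. Zfp758, Pfn2 (profilin 2) and the unnamed BC023105 were among the 15 largest positive values picked for naming, at 1.22, 1.11 and 1.41. They were not called with the array median. Zfp758 had a called change in differentiated cells, 0.78 (adjusted p = 0.0274), whereas Pfn2 and BC023105 had a called change after etoposide, -0.88 (adjusted p = 0.00152) and -1.15 (adjusted p = 0.0111). Mest, an imprinted gene chosen after its values had been seen because its call held without any array, read 11.996, 12.01 and 12.07 in sh-PIP4K2B and 11.65, 11.61 and 11.68 in control differentiated cells, and 9.39, 9.02 and 9.19 in sh-PIP4K2B and 9.83, 9.72 and 9.71 in control etoposide-treated cells. It changed by 0.38 (adjusted p = 0.00879) in differentiated cells, short of 1.4-fold, and fell after etoposide, with a change of -0.55 (adjusted p = 0.000308). The interaction was 0.93 (SE 0.11, adjusted p = 0.000103) (0.72, adjusted p = 0.00308).

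Negative interactions of the named genes were led by Trp53i11 and Grem1. Trp53i11, named as a p53-induced gene, read 9.99, 10.01 and 9.97 in differentiated sh-PIP4K2B cells against 11.22, 11.10 and 11.05 in their controls, and 8.32, 8.70 and 8.45 in etoposide-treated sh-PIP4K2B cells against 8.47, 8.47 and 8.47 in theirs. It fell on depletion in differentiated cells, with a change of -1.13 (adjusted p = 1.86e-07), and stood at 0.02 (adjusted p = 0.909) after etoposide, where the groups overlapped. The interaction was -1.16 (SE 0.12, adjusted p = 2.29e-05) (-0.99, adjusted p = 0.00124). Gremlin 1, Grem1, a secreted antagonist of bone morphogenetic proteins, read 10.13, 10.17 and 10.09 in sh-PIP4K2B and 10.83, 10.81 and 10.68 in control differentiated cells, and 10.92, 10.76 and 10.79 in sh-PIP4K2B and 10.29, 10.41 and 10.27 in control etoposide-treated cells. The sh-PIP4K2B arrays were the lower ones after differentiation and the higher ones after etoposide, without overlap. Both changes were called, -0.65 (adjusted p = 7.19e-05) and 0.50 (adjusted p = 0.00106), and the interaction was -1.14 (SE 0.11, adjusted p = 2.1e-05) (-1.27, adjusted p = 0.000164 with the array median), kept whichever array was left out in both fits. Grem1 was the only gene of 42 BMP, Wnt and TGF-beta ligands and antagonists called in both fits. On the deposited values Gdf6 and Wnt5b were also negative, at -0.60 and -0.61, and Tgfb2 positive, at 0.72, and the list median of -0.22 (-0.13 with the array median) was the lowest of the lists of 14 or more genes on these values. Hgf, hepatocyte growth factor, read 8.99, 9.19 and 8.90 in differentiated sh-PIP4K2B cells against 9.21, 9.09 and 9.24 in their controls, and 9.28, 8.89 and 9.16 in etoposide-treated sh-PIP4K2B cells against 8.44, 8.38 and 8.65 in theirs. The groups overlapped after differentiation and were separate after etoposide, with changes of -0.15 (adjusted p = 0.345) and 0.62 (adjusted p = 0.00188), and an interaction of -0.77 (SE 0.15, adjusted p = 0.00902) (-0.94, adjusted p = 0.0205), whose median-adjusted call 8 of the 12 leave-one-array-out fits kept. The monocarboxylate transporter family member Slc16a11 read 8.50, 8.49 and 8.56 in sh-PIP4K2B and 8.43, 8.46 and 8.50 in control differentiated cells, and 9.77, 9.74 and 9.96 in sh-PIP4K2B and 8.97, 9.02 and 9.13 in control etoposide-treated cells, likewise higher on sh-PIP4K2B arrays only after etoposide, at -0.73 (SE 0.10, adjusted p = 0.000856) (-0.72, adjusted p = 0.0136). Of 48 collagen and matrix genes the elastic fibre proteins Fbln5 and Eln were called negative. Fbln5 stood at -0.65 (SE 0.10, adjusted p = 0.0013) (-0.54, adjusted p = 0.0347), a median-adjusted call that 5 of the 12 leave-one-array-out fits kept, with a called change of -0.95 (adjusted p = 1.86e-07) in differentiated cells, and Eln at -0.60 (SE 0.15, adjusted p = 0.0334), without a median-adjusted call. Of the 15 most negative named genes only Trp53i11, Grem1, Hgf and Slc16a11 were called with the array median. The others were Prp2, Klk1b11, Unc45bos, Slc6a2, Rasd2, Myo18b, Dpt, Eppin, Ticam2, Sprr2h and Nkx2-1, which lay between -1.03 (Prp2) and -0.71 (Nkx2-1).

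**Figure D5:**
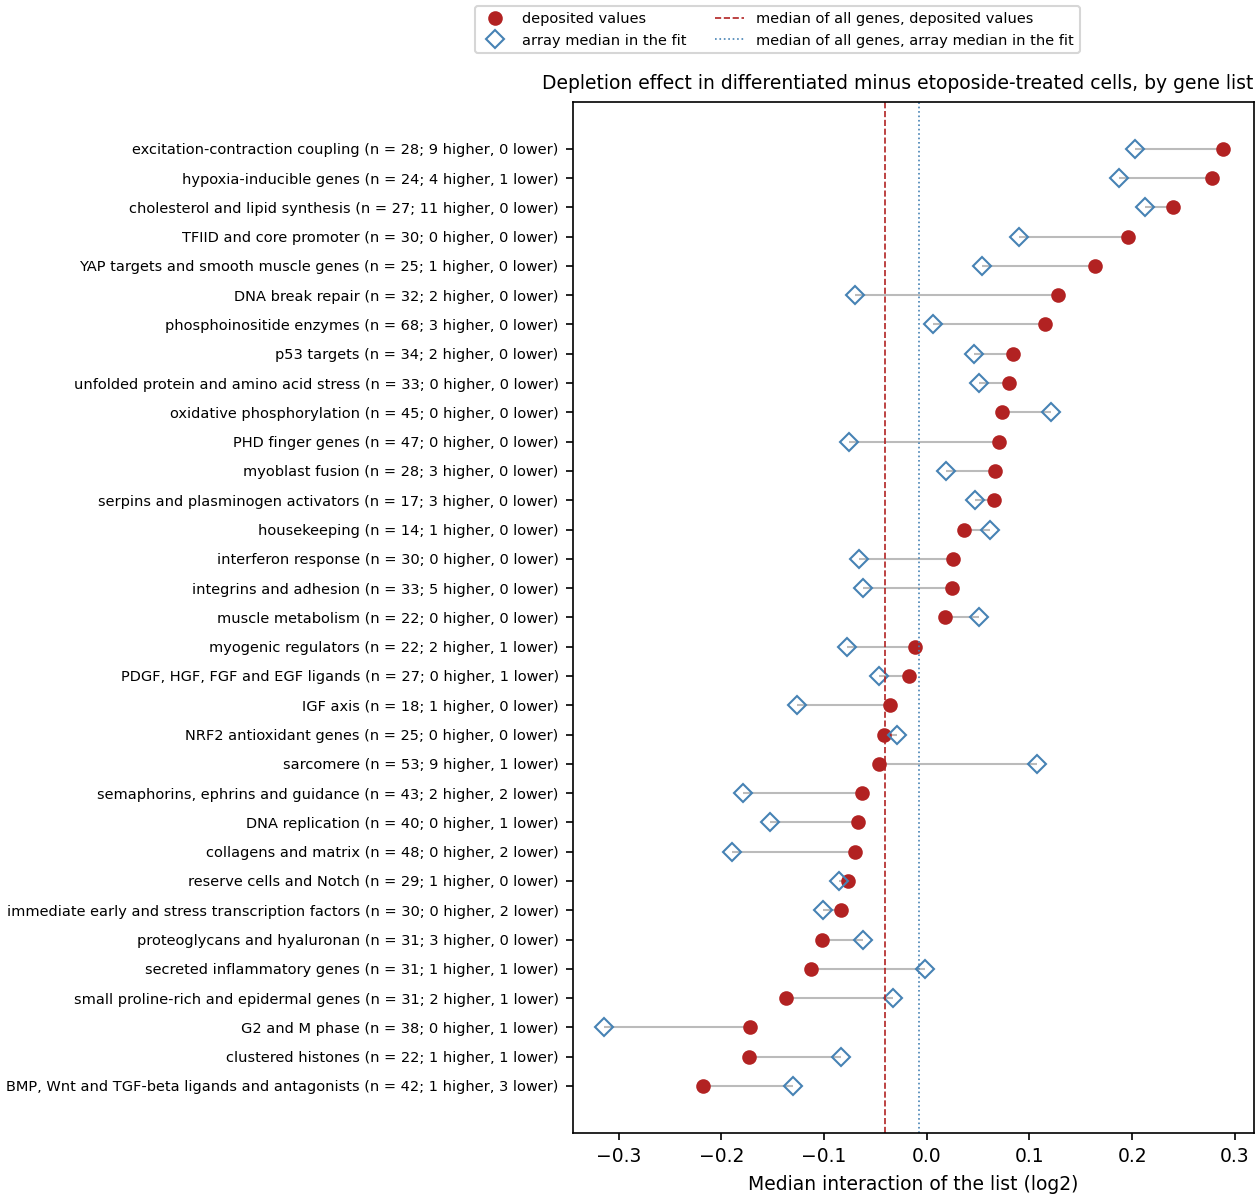
Median interaction (log2) of each gene list on the deposited values (filled circles) and with the array median in the fit (open diamonds), with the number of members called on the deposited values; dashed and dotted lines mark the medians of all genes, -0.04 and -0.01. Excitation-contraction coupling, hypoxia and cholesterol genes lie at 0.24 to 0.29, and genes of the G2 and M phases at -0.17 and -0.31.

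The lists of genes that answer to broken DNA held positive calls only, and over all genes 2.07% were called positive. Of 34 p53 targets Rrm2b and Eda2r were positive, at 0.66 (SE 0.12, adjusted p = 0.00554) and 0.49 (SE 0.13, adjusted p = 0.0395), and none was called with the array median. Of 32 genes of DNA break repair Xrcc4 and Xrcc5 were positive, at 0.61 and 0.56, on the deposited values only, and the list median of 0.13 was -0.07 with the array median. Of 68 phosphoinositide enzymes Mtmr1, Plcb4 and Sacm1l were positive and none was called with the array median, with list medians of 0.11 and 0.01. Lists of 30 TFIID and core promoter genes, 47 PHD finger genes, 30 interferon response genes, 33 genes of protein and amino acid stress, 25 NRF2 targets and 45 genes of oxidative phosphorylation held 0 calls in either fit by limma. The TFIID list had a median of 0.20, and 0.09 with the array median, against -0.04 and -0.01 for all genes. A p that misses the threshold does not show that these genes answered alike. Of 14 housekeeping genes 1 was called positive, the transferrin receptor Tfrc at 0.89 (SE 0.18, adjusted p = 0.0123), and not with the array median. Of 22 clustered histones H1f1 was negative at -0.60 and H1f2 positive at 0.51, on the deposited values only. The early response genes Fos and Egr3 were negative at -0.54 and -0.49 among 30 stress transcription factors, the chemokine Cx3cl1 at -0.53 among 31 secreted inflammatory genes, and Pappa, a protease that cuts IGF-binding proteins, was positive at 0.51 among 18 genes of the IGF axis. None of these was called with the array median. Of 33 integrin and adhesion genes Cd200, Cdh15, Itga4, Itga7 and Itgb6 were positive, the first and the last of them also with the array median, at 1.02 and 0.58, where Alcam was negative at -0.50. Of 25 YAP target and smooth muscle genes Myl9 was positive in both fits and Actg2 with the array median only, at 0.50.

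The corresponding difference for KK-TAF3 cells with sh-PIP4K2B against the same control arrays was called for 143 genes (0.717%). Both interactions share the 6 control arrays, so their values are only set side by side. KK-TAF3 cells stood at 1.41 for Car9, 0.66 for Hmgcs1, -0.65 for Plk1, -0.93 for Trp53i11 and 0.81 for Trdn, where WT-TAF3 cells stood at 1.59, 0.84, -0.55, -1.16 and 1.17. For Sprr2b, Lrrn1, Dcn, Il33 and Casq2 the values were 0.43, 0.37, 0.38, 0.03 and -0.37 in KK-TAF3 cells and 1.86, 1.43, 1.14, 0.87 and 0.997 in WT-TAF3 cells. For Mymk and Myog they were -0.97 and -0.62 in KK-TAF3 cells, both called, and 0.53 and 0.24 in WT-TAF3 cells. The difference between the KK-TAF3 and WT-TAF3 values was not tested.

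The array section of the paper yielded 23 gene symbols, older and alternative ones included, which matched 19 of the genes tested. A symbol left over can be another name of a gene already matched. Tspan7 and p21, which the paper also names there, are not among these 19. The carboxylesterase Ces2g stood at -0.56 (SE 0.14, adjusted p = 0.0278), with a called change of -0.90 (adjusted p = 1.71e-05) in differentiated cells, and not with the array median. Prelp, a proteoglycan of connective tissue, fell in both treatments, with changes of -0.99 in differentiated and -0.67 in etoposide-treated cells and an interaction of -0.32 (SE 0.14, adjusted p = 0.133). Pdgfd, a ligand of the PDGF receptor that was taken for the paper's Pdgf without a further check, stood at -0.41 and -0.47, an interaction of 0.05 (SE 0.14, adjusted p = 0.814). Igfbp4, Dkk3, Ncam2 and Epha5 stood at -0.48, -0.51, 0.22 and -0.41, without a call, where Epha5 is likewise a reading of the paper's Eph5. Igfbp4 had an adjusted p of 0.0164 and lay just short of the fold limit.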

How the data were processed

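RNA of C2C12 cells was measured on 18 Affymetrix mouse gene arrays. Per the labels, the deposited log2 values are RMA output of the authors' Affymetrix Expression Console (no version given). RMA corrects background, normalizes by quantiles and summarises each transcript cluster, and can shrink shifts common to all genes. The values were used as deposited. Of 35556 clusters 21789 had 1 gene symbol in the annotation used, 1621 had several and 12146 were not listed there; keeping for each symbol its brightest cluster left 19938 genes (999 had several clusters). The paper's supplement names a later chip generation than this annotation.

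All 18 arrays entered 1 linear model of 6 group means in limma 3.58.1 (R 4.3.3; 12 residual and 6.05 prior degrees of freedom), and the interaction was a contrast of 4 of them, called where the p adjusted by Benjamini-Hochberg was under 0.05 and the value beyond 1.4-fold. The same model with the median of each array as covariate left 11 residual degrees of freedom. Arrays of 1 group are described in the paper as biological triplicates, and their number limits the precision. Named genes were the target family and genes matched to symbols in the paper, the 15 largest called values in each direction without group overlap in at least 1 treatment, up to 6 called members of each list, and genes with opposite called changes. Before the 15 were picked, predicted genes, pseudogenes, small RNA genes and olfactory, vomeronasal and trace amine receptors were left out by their symbols. Others are said to be chosen afterwards. The comparison, the genes and the lists were chosen with earlier results of these data known. Alternatives were other normalizations, filters, priors and weights, a replicate block, leaving out each array and, chosen after seeing the data, further fits with the array median. Promoters are RefSeq's, in GRCm38.p6. Plots and tables used matplotlib 3.10.9, pandas 2.3.3 and numpy 2.4.6 under Python 3.11.15.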

Additional observations from a re-analysis of the deposited data

Results flagged for a closer look

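For 2 genes the change on PIP4K2B depletion was called in both treatments with opposite sign, and the difference itself was called. Trdn had an interaction of 1.17 and lay above all control arrays on all 3 sh-PIP4K2B arrays after differentiation and below all of them after etoposide. Grem1 had an interaction of -1.14, with the arrays in the reverse order. Both interactions were also called with the array median in the fit. There both changes of Grem1 were called too, whereas of Trdn's changes, 0.37 in differentiated (adjusted p = 0.155) and -0.56 in etoposide-treated cells (adjusted p = 0.00241), only the second was.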

How the results depend on the processing

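Against 801 calls (413 above and 388 below 0), the count was 1356 (1290 and 66) with each array centred on its median, which raises the median of all genes by 0.143, 462 (290 and 172) with quantile normalization within each treatment and 96 (57 and 39) with the array median as covariate. The share above 0 was 51.6% on the deposited values, 95.1% with centring, 62.8% with quantile normalization within treatments and 59.4% with the covariate. It was 1365 (652 and 713) without adjustment of p, 1329 (675 and 654) without a fold limit, 455 (286 and 169) on the 12 arrays alone, 664 (407 and 257) with array weights by treatment, 892 (468 and 424) with a trended robust prior and 794 (416 and 378) with the mean of a gene's clusters. Over 9969 genes above the median signal it was 483 (387 and 96), and over all 35556 clusters 274 (205 and 69). Leaving out an array gave 180 to 2668 calls, 144 to 1041 above and 36 to 1627 below 0; the cause of this spread was not tested. Chosen after seeing the data, the covariate with its own slope in each treatment gave 40 (26 and 14), on 12 arrays 57 (35 and 22), with a trended robust prior 122 (73 and 49), with array weights 86 (54 and 32), and without single arrays 14 to 127.

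Same-numbered arrays deviated together after etoposide (r = 0.435, 0.332 and 0.559) and not after differentiation (r = 0.205, -0.0991 and -0.0492), and 8 of 12 arrays correlated best with their own number, among them all 6 etoposide-treated ones, so the numbers were not taken as pairs across the interaction. A replicate block in both treatments gave 807 calls (477 and 330), 694 of them among the 801, and among the named genes Mymk and Ticam2 were not called (adjusted p = 0.0552 and 0.0514). Chosen after seeing the data, a replicate block for the etoposide-treated arrays alone gave 1081 (580 and 501), with all 801 among them, and 183 called changes on depletion after etoposide against 173 without it. Over the 107 named genes and all alternatives 3308 values kept their side of the threshold, 698 lost it and 28 gained it. This tally pools in the median-adjusted leave-one-array-out fits, which were set against the median-adjusted call. Values that stayed without a call count as kept. Adm, without a median-adjusted call, thus counted as kept in all 12 of those fits, against 4 of 12 on the deposited values. A turn of direction was counted only where a value was called, and the count was 0. Values without a call could change sign, as Pdgfd did, with 0.05 on the deposited values and -0.05 with the array median. RMA values hold no measure of signal over background, so for dim genes the changes on depletion may be understated.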
